A study of Mus musculus with 4 samples.

Results

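A set of 10 genes whose products work mainly in germ cells was followed through poly(A) RNA sequencing of mouse embryonic stem cells with and without intact Drosha. They were Tex15, Stk31, Mageb16, Nanos3, Dazl, Mael, Tdrd1, Tex101, Asz1 and Stra8, taken as the rows of the count files whose Ensembl identifier carries one of these symbols. All 10 were found among 43629 listed genes, and 9 of them, all but Asz1, passed the expression filter that left 17022 genes for testing. They were chosen by symbol with the measured levels in the 4 libraries, and the ratios of each knockout to each wild-type library, already known. Their values in that contrast, and the edgeR results given for them, are therefore a description, and nothing is supported by them.

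Knockout library 1 (KO1) came from cells in which paired CRISPR/Cas9 cuts removed the proline-rich region of DROSHA, the nuclear RNase that releases microRNA hairpins from their primary transcripts. Knockout library 2 (KO2) came from cells lacking the region rich in arginine and serine, and both are labelled passage 7. The wild-type libraries were E14 cells at passage 33 (WT1) and passage 42 (WT2), labelled as re-used samples. All 4 were grown in serum plus LIF on a 129/Ola background, and no label says whether the knockout cells were single clones or derived from E14. The mark d5 in the knockout titles is not explained by the labels. Genotype, passage and origin of the libraries change together and cannot be told apart.

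The libraries held 29264632 to 42322129 counts, and 1 count was worth 0.0225 to 0.0324 CPM, a count scaled to the TMM-adjusted size of its library. The knockout libraries carry different deletions and the wild types different passages, so n = 2 per group pools unlike samples as replicates. The p-values measure the spread between these 4 samples alone, part of which may be technical. The Drosha transcript, of which each knockout lacks a stretch, stood at 158 (KO1), 158 (KO2), 364 (WT1) and 357 CPM (WT2). Its fitted log2 fold change was -1.19 ± 0.11 (SE, n = 2 per group, edgeR adjusted p = 0.0482). Stem cell markers were present in every library, with Pou5f1 at 528 to 1132 CPM and Nanog at 489 to 720 CPM. Of 12 tested 1, Utf1, rose (log2 fold change 2.11 ± 0.31, edgeR adjusted p = 0.0482, but 0.54 with GC and length trends removed), where 3.51% of all tested genes rose. In edgeR 5 of the 12 had an unadjusted p under 0.05, beside 37.1% of all tested genes. The knockout libraries were nearly alike, with 1.1% of tested genes at least 2-fold apart, whereas 18.1% of genes were at least 2-fold apart between the wild types. Of 14 tested endoderm markers (median log2 fold change -1.90) 11 had an unadjusted p under 0.05 in edgeR, as did 37.1% of all tested genes. By the adjusted p 4 of the 14 fell in the knockouts, where 1.94% of all tested genes did: Cubn (-4.10 ± 0.52), Lama1 (-2.09 ± 0.17), Col4a1 (-1.71 ± 0.25) and Lrp2 (-1.32 ± 0.11), each with an adjusted p of 0.0482. Fibroblast and feeder markers had a summed level of 169 (KO1), 159 (KO2), 82.9 (WT1) and 51.5 CPM (WT2). Of 11 tested markers, with a median log2 fold change of 1.18, 0 passed in edgeR. An unadjusted p under 0.05 was reached by 7 of them, beside 37.1% of all tested genes. Dcn, a matrix proteoglycan gene of fibroblasts, had 51 counts in KO1 and 24 in KO2, with none in either wild type. It did not pass in edgeR (adjusted p = 0.0639). Nor did it in edgeR with upper-quartile scaling (adjusted p = 0.0656), library totals alone (0.0689) or GC and length trends removed (0.109). It passed in DESeq2 (adjusted p = 0.000247), in edgeR without a filter (adjusted p = 0.0211) and with the replicate block (adjusted p = 0.0194). Col3a1 ranged from no count in WT2 to 1.52 CPM in KO1. The part of such cells in the results that follow was not tested. In bulk RNA, fewer cells expressing a gene and less RNA per cell cannot be told apart.

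Germ cell genes are a textbook case of silencing by DNA methylation. Many have CpG-rich promoters that become methylated when the embryo implants. In stem cells a Polycomb complex built on MGA, MAX, E2F6, PCGF6 and L3MBTL2 holds a share of them down. Mouse embryonic stem cells, which resemble the embryo before implantation, transcribe several of these genes at low to moderate levels. The products described here act in transposon control by small piRNAs (MAEL, TDRD1, ASZ1, TEX15), in RNA binding (NANOS3, DAZL), in the entry into meiosis (STRA8), and on the surface of germ cells (TEX101). STK31 is a germ cell kinase with a Tudor domain, and MAGEB16 belongs to the X-linked melanoma antigen family.

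Promoter sequence was available for 9 of the 10 genes from RefSeq (build GRCm38.p6), as windows from 250 bases before to 50 bases after the start site. Tex15 had no entry. The 250 bases before the start site are printed 5′ to 3′ on the gene's strand for 4 genes: the 3 with an entry among those that moved most between genotypes, and Mael, which held both motifs searched. Capitals mark the E-box CACGTG, which MGA with MAX can bind, and the E2F core GCGGGA or its complement TCCCGC, which E2F6 can bind. They are Stk31 (chr6:49395354-49395603, plus strand), Mageb16 (chrX:79671436-79671685, minus strand), Nanos3 (chr8:84176553-84176802, minus strand) and Mael (chr1:166238745-166238994, minus strand).
Stk31: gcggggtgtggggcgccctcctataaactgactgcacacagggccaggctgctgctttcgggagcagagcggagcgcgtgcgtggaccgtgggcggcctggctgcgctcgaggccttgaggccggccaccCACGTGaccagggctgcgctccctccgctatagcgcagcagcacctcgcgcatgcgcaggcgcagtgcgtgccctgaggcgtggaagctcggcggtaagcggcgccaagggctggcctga
Mageb16: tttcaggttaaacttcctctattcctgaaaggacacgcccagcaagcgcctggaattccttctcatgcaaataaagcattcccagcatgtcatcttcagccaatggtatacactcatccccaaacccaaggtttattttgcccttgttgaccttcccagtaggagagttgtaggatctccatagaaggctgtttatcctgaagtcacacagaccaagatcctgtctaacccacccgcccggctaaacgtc
Nanos3: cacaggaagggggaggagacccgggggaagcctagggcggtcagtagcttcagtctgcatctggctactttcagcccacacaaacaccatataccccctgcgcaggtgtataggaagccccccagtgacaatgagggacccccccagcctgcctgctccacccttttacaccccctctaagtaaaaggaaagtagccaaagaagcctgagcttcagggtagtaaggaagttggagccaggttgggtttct
Mael: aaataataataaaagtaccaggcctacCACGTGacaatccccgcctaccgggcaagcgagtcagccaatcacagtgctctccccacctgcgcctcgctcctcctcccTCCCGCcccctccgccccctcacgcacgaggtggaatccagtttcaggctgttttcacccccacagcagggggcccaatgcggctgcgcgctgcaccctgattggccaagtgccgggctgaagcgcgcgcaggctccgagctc

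The promoters ranged from CpG-rich to CpG-poor. Observed over expected CpG was 0.795 for Dazl, 0.783 for Asz1, 0.78 for Mael, 0.75 for Stk31, 0.733 for Tdrd1 and 0.7 for Tex101, against a median of 0.384 over 32851 promoter windows. It was 0.43 for Stra8, 0.335 for Mageb16 and 0.131 for Nanos3, whose window lay at percentile 18.1 of all windows. The E-box was found on either strand in 3 of 9 genes (Stk31, Mael and Tdrd1), where 7.15% of all windows hold it. An E2F core was found in 1 of 9, Mael, with matches at -143 and 12 relative to the start site, where 6562 of the 32851 windows hold it, and both motifs occurred together in 1.99% of all windows. In 55 other listed germline genes with a window the shares were 29.1% for the E-box and 38.2% for the E2F core. A match is a description of the letters and not a bound site. Among the genes that differed most between genotypes, Stk31 had a CpG-rich promoter with an E-box, while the windows of Mageb16 and Nanos3 were CpG-poor with neither motif. The Nanos3 window lies at the start of its coding transcripts (84176552). A longer, non-coding Nanos3 transcript starts at 84185217, and the sequence there was not examined. Gene counts do not tell which start site lay behind the Nanos3 reads. The Tex101 window, at start site 24672050, also lies inside the annotated gene, whose 5′ end on the minus strand is at 24676675. The Stra8 window, at 34920948, lies inside a gene that begins at 34920163. Sequence at those outer ends was not examined.

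**Figure D1:**
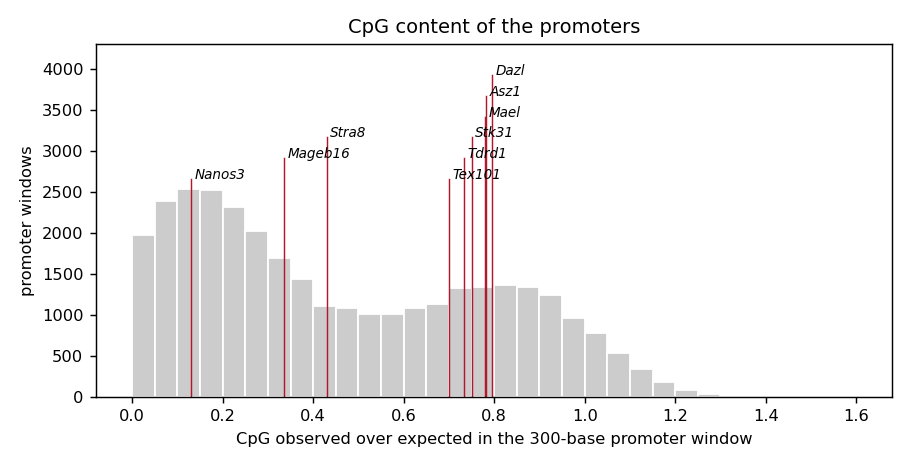
Histogram of observed over expected CpG (x axis, no unit) in 32851 RefSeq promoter windows of 300 bases (y axis, number of windows), with a red line for each of the 9 germline genes with a window. Dazl, Asz1, Mael, Stk31, Tdrd1 and Tex101 lie between 0.7 and 0.795, and Nanos3 lies lowest at 0.131.

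Measured per length of transcript, most of these genes were modestly expressed in wild-type stem cells. Levels are given as RPKM, the CPM divided by the merged exon length in kilobases. The wild-type means ran in the order Stra8 (39.1), Mael (28.9), Mageb16 (8.53), Stk31 (5.64), Dazl (5.44), Tex15 (3.47), Tex101 (1.11), Tdrd1 (0.541), Nanos3 (0.451) and Asz1 (0.133). Stra8 stands first only through WT2, with 5.59 RPKM in WT1 and 72.6 RPKM in WT2, and its range covers that of Mael. Tex101 holds its place only through WT1, with 2.03 RPKM there and 0.184 RPKM in WT2, below both Tdrd1 (0.719) and Nanos3 (0.361) in that library. Stk31 and Dazl overlapped between libraries, as did Tdrd1, Nanos3 and Tex101. Mael, at 30.6 and 27.2 RPKM, lay at percentile 91.6 of protein-coding genes.

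The order in the knockouts was another one. Mael (19.8 RPKM) and Stra8 (19.4 RPKM) came first and overlapped, followed by Nanos3 (4.87), Dazl (3.32), Mageb16 (1.84), Stk31 (1.44), Tex101 (0.889), Tex15 (0.543), Tdrd1 (0.468) and Asz1 (0.0217). Nanos3 had moved from rank 9 to rank 3, and Tex15 from rank 6 to rank 8.

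**Figure D2:**
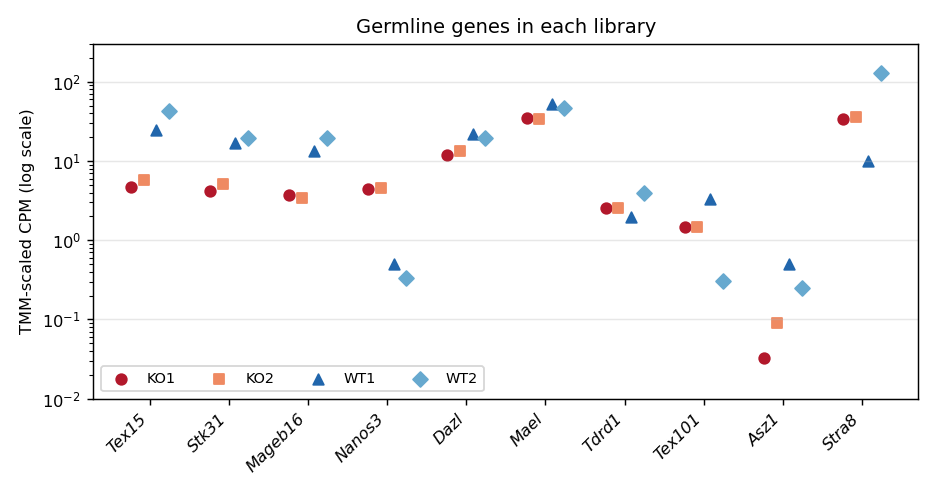
TMM-scaled CPM of the 10 germline genes (y axis, log scale) in each library, with 1 point per library and no error bar. Tex15, Stk31 and Mageb16 lie lower in both knockouts than in both wild types, Nanos3 lies higher, and the wild-type points of Stra8 and Tex101 lie on either side of the knockout points.

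Tex15, Stk31 and Mageb16 were lower in both knockout libraries than in both wild types, and Nanos3 was higher. These 4 genes passed the edgeR quasi-likelihood test across all genes at an adjusted p under 0.05, where 5.45% of the 17022 tested genes passed (3.51% higher and 1.94% lower). Since their place in the set rests on that contrast, nothing is read from the share. The sets of libraries did not overlap for 6 of 9 tested members (Tex15, Stk31, Mageb16, Dazl and Mael lower, Nanos3 higher), but 71.2% of all tested genes did not overlap either (36.5% higher and 34.8% lower in the knockouts). Under upper-quartile scaling, library totals, correction for GC and length, or without KO1, no gene passed in edgeR, and leaving out WT1 or WT2 instead gave 13658 or 12089 genes, so the calls depend on the scaling and on the libraries kept.

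Tex15 (ENSMUSG00000009628, chromosome 8, 33516738 to 33585582, build mm10, plus strand) encodes a large protein needed for transposon methylation in fetal male germ cells and for repair of meiotic breaks. Its level was 4.73 (KO1), 5.73 (KO2), 24.4 (WT1) and 42.4 CPM (WT2). Both knockouts were thus far below both wild types, and WT2 stood above WT1. The knockout mean was 5.23 ± 0.702 CPM and the wild-type mean 33.4 ± 12.7 CPM (SD, n = 2 each), a fitted log2 fold change of -2.67 ± 0.34 (SE), or 6.37-fold lower. Each of the 4 knockout to wild-type ratios was beyond 2-fold, from -2.08 for KO2 over WT1 to -3.15 for KO1 over WT2 on the log2 scale. The nearest measured protein-coding genes did not pass the test: Purg, 99271 bases away, was at -0.19 ± 0.24 on the log2 scale (edgeR adjusted p = 0.586), and Ppp2cb, 14043 bases away, at -0.47 ± 0.27 (adjusted p = 0.267).

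Mageb16 (ENSMUSG00000046942, chromosome X, 79623231 to 79671435, minus strand) measured 3.76 (KO1), 3.40 (KO2), 13.5 (WT1) and 19.7 CPM (WT2). The knockout pair lay close together, well below the wild types. The means were 3.58 ± 0.252 and 16.6 ± 4.38 CPM (SD, n = 2 each), and the fitted log2 fold change was -2.21 ± 0.27 (SE). Its nearest measured coding neighbours were over a megabase away, and neither Prrg1 (-0.75 ± 0.39, edgeR adjusted p = 0.227) nor Tmem47 (-1.51 ± 0.48, adjusted p = 0.106) passed. Among 18 other genes of the MAGE family 6 were tested. Maged1, a broadly expressed member, rose (log2 fold change 0.85 ± 0.11, edgeR adjusted p = 0.0482), 5 did not pass, and 6 had no count in any library. Of all tested genes 3.51% rose. In edgeR 2 of the 6 tested had an unadjusted p under 0.05, beside 37.1% of all tested genes. With GC and length trends removed Maged1 was at 0.57 ± 0.09 and did not pass (edgeR adjusted p = 0.097). The germ cell members Mageb4 (KO1 0.227 CPM, KO2 0.248, WT1 1.23 and WT2 0.417) and Magea4 were tested and did not pass.

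Stk31 (ENSMUSG00000023403, chromosome 6, 49395604 to 49469501, plus strand) measured 4.18 (KO1), 5.14 (KO2), 16.8 (WT1) and 19.8 CPM (WT2). The groups were apart in every pair of libraries, by -1.70 to -2.23 on the log2 scale. The means were 4.66 ± 0.677 and 18.3 ± 2.10 CPM (SD, n = 2 each), with a fitted log2 fold change of -1.97 ± 0.21 (SE), or 3.91-fold lower. A processed pseudogene on the opposite strand inside the Stk31 span, Gm17060, had 23, 21, 54 and 86 counts in KO1, KO2, WT1 and WT2. The strand setting of the counting was not given in the sources used here, so reads of the 2 genes may not be fully separated. Of its neighbours, Fam221a (-0.30 ± 0.40, edgeR adjusted p = 0.610) and Mpp6 (-0.54 ± 0.12, adjusted p = 0.0639) did not pass.

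Nanos3 (ENSMUSG00000056155, chromosome 8, 84173731 to 84185217, minus strand) encodes an RNA-binding protein that keeps primordial germ cells alive. It had 137 counts in KO1 and 202 in KO2, but 20 in WT1 (95% exact Poisson interval 12.2 to 30.9, covering counting error only) and 12 in WT2 (6.20 to 21.0). In CPM these were 4.44 and 4.55 against 0.501 and 0.333, so the knockouts agreed closely and both wild types were low. The fitted log2 fold change was 3.42 ± 0.33 (SE), or 10.7-fold higher, and the 4 ratios between single libraries ran from 3.02 to 3.56. Neighbouring genes had fitted changes in the same direction without passing, at 1.18 ± 0.73 for 4930432K21Rik (edgeR adjusted p = 0.297), 1141 bases away, and 0.96 ± 0.17 for Zswim4 (adjusted p = 0.0521). Correction for GC and length ended that direction for Zswim4 (-0.028). The value of 4930432K21Rik was 2.62 without WT1 and 0.46 without WT2, so its size depended on the wild-type library kept.

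The span of Nanos3 also holds a pair of microRNA genes on the same strand, Mir181c (chromosome 8, 84178873 to 84178961) and Mir181d (84178716 to 84178787). Both lie upstream of the coding transcripts of Nanos3, which start at 84176552, and inside the intron of a longer, non-coding transcript of Nanos3. That transcript starts at 84185217, and its second exon covers the last exon of the coding transcripts. Their mature products share the seed, bases 2 to 8 in capitals, and are printed because they identify the microRNAs inside this gene (RefSeq, GRCm38.p6).
miR-181c-5p: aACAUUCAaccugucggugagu
miR-181d-5p: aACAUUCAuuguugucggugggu
Mir181c had 11 and 7 counts in KO1 and KO2 and none in either wild type, and Mir181d had 5 and 12 counts in the knockouts and none in the wild types, which allows up to 3 counts per library. Reads over these microRNA genes were therefore seen only in the libraries where Nanos3 was high. Gene counts do not tell the coding transcripts from the non-coding one, and the part of the longer transcript in the Nanos3 count was not tested.

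The RNA-binding and piRNA genes Dazl and Mael were lower in both knockouts by less than 2-fold and did not pass. Dazl (ENSMUSG00000010592, chromosome 17, 50279395 to 50293636), which encodes a translational regulator of germ cells, stood at 11.8 (KO1), 13.6 (KO2), 21.9 (WT1) and 19.7 CPM (WT2). The groups did not overlap, and the fitted log2 fold change was -0.71 ± 0.17 (SE). It was -0.07 ± 0.22 once smooth trends of each library over GC content and exon length were removed, so the size of this difference depends on that correction. Mael (ENSMUSG00000040629, chromosome 1, 166201201 to 166238747), a piRNA pathway factor of the nuage, stood at 34.6 (KO1), 34.03 (KO2), 52.95 (WT1) and 47.2 CPM (WT2). The fitted change was -0.55 ± 0.13, and the libraries of each genotype lay close together.

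Tdrd1 (ENSMUSG00000025081, chromosome 19, 56826209 to 56870012), a Tudor domain protein that docks PIWI proteins, measured 2.53 (KO1), 2.57 (KO2), 1.98 (WT1) and 3.92 CPM (WT2). The knockout values fell between the wild types, and the fitted change of -0.21 ± 0.41 gives no direction. Asz1 (ENSMUSG00000010796, chromosome 6, 18050964 to 18109061), a mitochondrial partner in piRNA production, reached only 1 count in KO1 and 4 in KO2, with 20 counts in WT1 and 9 in WT2. Counting intervals were 0.0253 to 5.57 and 1.09 to 10.2 in the knockouts, and 12.2 to 30.9 and 4.12 to 17.1 in the wild types. KO2 and WT2 could thus not be separated at this depth, and Asz1 was not tested.

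Stra8 and Tex101 differed far more between the wild-type libraries than between the genotypes. Stra8 (ENSMUSG00000029848, chromosome 6, 34920163 to 34939344), the retinoic acid-induced factor that licenses meiosis, measured 33.8 (KO1), 36.1 (KO2), 10.1 (WT1) and 131 CPM (WT2). The wild types were 12.9-fold apart, with the knockouts between them. Its log2 ratio was therefore 1.74 and 1.84 for KO1 and KO2 over WT1, but -1.95 and -1.86 over WT2, and the fitted -1.01 ± 1.15 (SE) averages opposite differences. Tex101 (ENSMUSG00000062773, chromosome 7, 24668007 to 24676675), a lipid-anchored surface glycoprotein of germ cells, went the other way. Its level was 1.46 (KO1), 1.49 (KO2), 3.36 (WT1) and 0.306 CPM (WT2), where 11 counts lay behind the value. WT2 was 9.38-fold below WT1, and the knockouts were at log2 ratios of -1.18 and -1.15 to WT1 but 2.05 and 2.08 to WT2.

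Compared library by library, the same number of tested members was at least 2-fold lower (4 of 9) and at least 2-fold higher (2 of 9) in each of the 4 pairs, but they were not the same genes. Tex15, Stk31, Mageb16 and Nanos3 kept their direction throughout. The remaining lower gene was Tex101 against WT1 and Stra8 against WT2, and the remaining higher gene was Stra8 against WT1 and Tex101 against WT2. Of all tested genes, 18.9% were at least 2-fold apart for KO1 over WT1 (11.7% higher, 7.26% lower) and 17.3% for KO2 over WT1 (10.9% higher, 6.46% lower). Over WT2 the shares were 33.4% for KO1 (22.2% higher, 11.2% lower) and 32% for KO2 (21.8% higher, 10.3% lower). These pairs share their libraries and are not separate evidence. Between the knockouts no tested member reached 2-fold (largest 0.29 on the log2 scale, for Stk31), where 1.1% of all tested genes did. Between the wild types Stra8 and Tex101 were the 2 tested members past 2-fold, where 18.1% of all tested genes were. Both were past 8-fold, where 0.858% of tested genes were. The members were chosen with their levels known, so nothing is read from these shares.

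**Figure D3:**
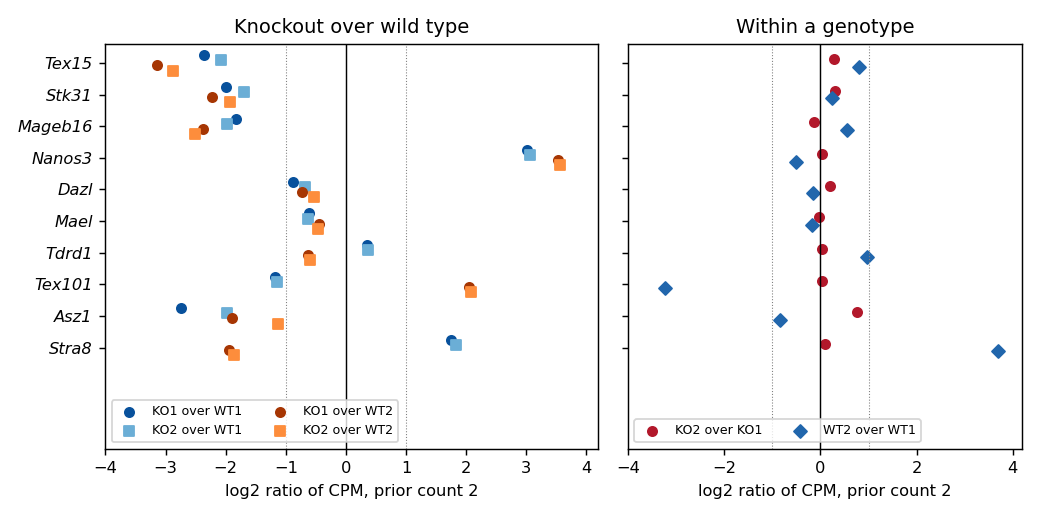
Log2 ratio between single libraries, after adding a prior count of 2 (x axis), for the 10 germline genes (rows), with the 4 knockout over wild-type pairs on the left and the pairs within a genotype on the right, and dotted lines at 2-fold. Stra8 and Tex101 change sign with the wild-type library used, and WT2 over WT1 is 3.69 for Stra8 and -3.23 for Tex101.

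Other genes also differed between the wild-type libraries, where 18.1% of all tested genes were at least 2-fold apart. So were 6 of 20 tested piRNA pathway genes, 8 of 24 meiosis genes and 5 of 19 specification genes. Their median log2 ratios of WT2 over WT1 were -0.46, 0.41 and 0.05. The piRNA gene Fkbp6 had the knockouts between the wild types as Tex101 did, at 0.778 (KO1), 0.789 (KO2), 4.26 (WT1) and 0.222 CPM (WT2). Tdrd5 did so in the direction of Stra8, at 7.97, 7.93, 5.29 and 14.3 CPM. With 1 library on each side, any such gene varies along with Stra8 and Tex101, so the shared difference is a description. Endoderm markers were higher in WT2, by a median of 0.93 on the log2 scale over 14 tested genes. Dab2 went from 17.7 CPM (WT1) to 66.1 CPM (WT2), and the summed level of the list was 452 CPM for KO1, 450 for KO2, 788 for WT1 and 1037 for WT2. Afp, a marker of visceral endoderm, had at most 1 count in any library. Genes of the two-cell-like state, a rare state of stem cell cultures, went the other way with a median of -2.32 over 8 tested genes (0 called in edgeR between genotypes, 0 at an unadjusted p under 0.05). Of 13 matched genes 11 were under 1 CPM in every library, so this median rests on few counts. Their summed level was 5.09, 5.36, 6.39 and 0.722 CPM in KO1, KO2, WT1 and WT2. Their part in the Stra8 and Tex101 values was not tested. The DNA methyltransferase genes Dnmt3b (WT1 409 CPM, WT2 111) and Dnmt3l (WT1 440 CPM, WT2 100.1) also differed between the wild types and lay at 263 to 264 and 323 to 329 CPM in the knockouts. They were picked from 25 tested genes known to hold germ cell genes silent. Of these 25, 4 were at least 2-fold apart between the wild types, and their median was -0.07. Rhox5, an X-linked homeobox gene of placenta and testis, stood at 311 CPM (WT1) and 21.5 CPM (WT2). It was picked from the specification list, whose median was 0.05.

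Retinoic acid signalling genes, which act upstream of Stra8, were compared because Stra8 is a direct target of the receptors. Of 18 listed genes 15 were tested, and the receptor gene Rara rose from 23.2 and 24.6 CPM to 62.7 and 57.8 CPM (log2 fold change 1.34 ± 0.13, edgeR adjusted p = 0.0482). The other 14 did not pass, and 7 of 15 had an unadjusted p under 0.05 in edgeR, beside 37.1% of all tested genes. The list's median log2 fold change was 0.90 beside -0.02 over all tested genes. With GC and length trends removed Rara was at 0.22 ± 0.23. Between the wild types the list had a median of 0.03, and the induced genes Cyp26a1 (0.125 and 0.972 CPM in WT1 and WT2) and Rarb (0.0752 and 0.194 CPM) were too low to be tested.

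Mybl1 and Tfap2c were the germline genes outside the set that passed the test. Of 68 genes of piRNA production, meiosis and germ cell specification with a match, 63 were tested, 1 rose and 1 fell, a share of 3.17% beside 5.45% over all genes. An unadjusted p under 0.05 was reached by 24 of the 63 in edgeR, beside 37.1% of all tested genes. DESeq2 called 16 of 68 (7 higher, 9 lower), beside 3747 of all 26409 genes it tested. Mybl1, the transcription factor that switches on pachytene piRNA precursors, fell from 41.5 and 47.6 CPM to 21.4 and 21.9 CPM (log2 fold change -1.04 ± 0.15, edgeR adjusted p = 0.0482). Correction for GC and length left -0.36 ± 0.11. Tfap2c, which encodes a transcription factor of primordial germ cells and trophoblast, rose from 37.8 and 41.4 CPM to 84.7 and 83.4 CPM (log2 fold change 1.08 ± 0.13, adjusted p = 0.0482). The median log2 fold change of the 20 tested piRNA pathway genes was -0.19, that of 24 meiosis genes -0.19, and that of 19 specification genes -0.06.

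Within these lists values went both ways without passing. The meiosis gene with the smallest p was Six6os1, a component of the synaptonemal complex, at 45.3 and 47.9 CPM against 86.1 and 120.6 CPM (log2 fold change -1.15 ± 0.21, edgeR adjusted p = 0.0537). The genes whose pattern over the 4 libraries was closest to the members, by root mean square distance of centred log2 CPM, were Tex11 for Tex15 (0.509) and Mageb16 (0.365), Tex12 for Stk31 (0.268), Tex15 (0.638) and Mageb16 (0.436), and Sycp2 for Stk31 (0.366). Tex11, Tex12 and Sycp2 encode synaptonemal complex or crossover proteins, and Tex11 stood at 5.77 (KO1), 6.54 (KO2), 12.8 (WT1) and 28.6 CPM (WT2). The closest to Nanos3 were Spocd1 (0.561), at 1.005 (KO1), 0.496 (KO2) and 0.125 CPM (WT1), with no count in WT2, and Sohlh1 (0.589). Tex12 rested on 4 counts in KO1 and 7 in KO2, with 25 counts in WT1 and 17 in WT2, which limits the precision of its distances. The same limit holds for Spocd1, with 31, 22 and 5 counts in KO1, KO2 and WT1. It holds for Sohlh1 as well, with 22, 19 and 5 counts there and none in WT2. With 4 libraries such distances are a description.

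Of the genes known to hold germ cell genes silent, Mga, Tfdp1 and Rybp fell. Of 25 tested silencers 3 fell, 0 rose and 22 did not pass, where 1.94% of all tested genes fell and 3.51% rose. Their median log2 fold change was -0.29, and 12 of 25 had an unadjusted p under 0.05 in edgeR, beside 37.1% of all tested genes. Mga, the scaffold of the Polycomb complex named above, fell from 544 and 415 to 214 and 227 CPM (-1.12 ± 0.18 on the log2 scale, edgeR adjusted p = 0.0499). Tfdp1, which encodes the dimer partner of E2F proteins, fell by 0.81 ± 0.11 (adjusted p = 0.0482), and Rybp, a Polycomb subunit, by 0.72 ± 0.11 (adjusted p = 0.0499). After removal of the GC and length trends the values were -0.54, -0.54 and -0.29. E2f6 (-0.46 ± 0.30, adjusted p = 0.312), Pcgf6, Setdb1, Dnmt1 and Uhrf1 did not pass. None of 8 tested demethylation genes passed in edgeR. Beside 37.1% of all tested genes, 5 of the 8 had an unadjusted p under 0.05. Kdm3a, with the smallest p among them, had -0.59 ± 0.13 (adjusted p = 0.0630), and Tet1 stood at 363 (KO1), 372 (KO2), 988 (WT1) and 476 CPM (WT2).

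**Figure D4:**
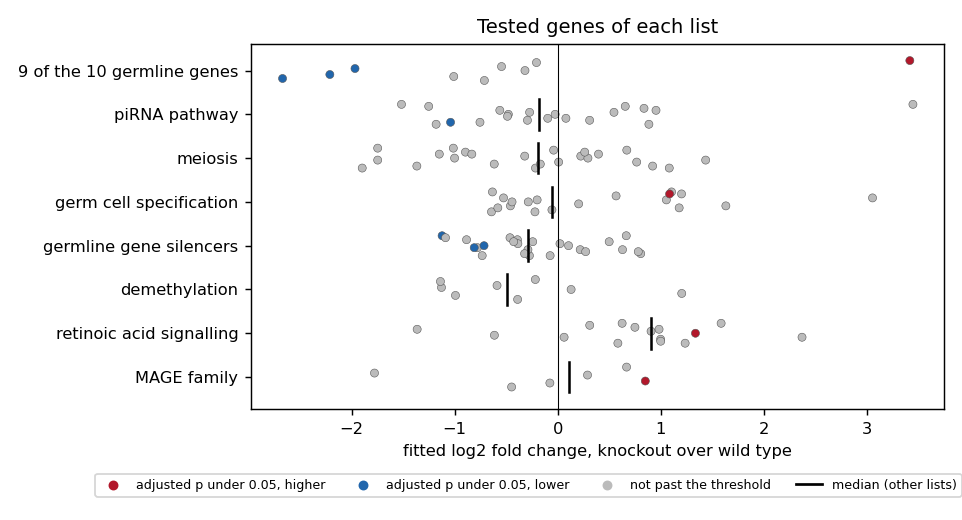
Fitted log2 fold change, knockout over wild type (x axis), of the tested genes of each list (rows), with 1 point per gene, red or blue where the edgeR adjusted p was under 0.05, and a black bar at the median of each list other than the germline set. Silencers hold 3 lower genes, piRNA genes 1, and retinoic acid, MAGE and specification genes 1 higher gene each.

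The longest annotated 3′ UTR of each gene was searched on the sense strand for the 7-base seed match of miR-294, AGCACTT, a microRNA abundant in stem cells, and of let-7a, CTACCTC, which is held low there. Other microRNA families were not searched. The mature miRNAs are printed with the seed, bases 2 to 8, in capitals.
miR-294-3p: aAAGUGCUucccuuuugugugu
let-7a-5p: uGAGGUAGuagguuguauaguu
None of the 10 genes held either match, nor TGAATGT, the match of miR-181c and miR-181d, in UTRs of 149 to 1854 bases. Among UTRs within 10% of the same length, matches of miR-294 occurred in 1.3% for Stk31, 1.61% for Nanos3, 17.4% for Tex15 and 19.5% for Dazl, so a match was uncommon at the shorter lengths. No match says only that these letters are missing from these sequences.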

How the data were processed

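Poly(A) RNA libraries were made from Trizol RNA with a TruSeq kit and a reverse-stranded protocol, per the labels' protocols. The authors deposited raw read counts per Ensembl gene, without normalisation, and every file belonged to 1 library. STAR 2.4.2a, featureCounts 1.4.5-p1 and build mm10 are named in the submitters' processing notes. Which annotation release was used, and how strand, overlaps and multiple matches were handled, is not given in the sources used here.

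Counts were fitted with edgeR 4.0.16 in R 4.3.3 (TMM scaling, expression filter with minimum count 10 and minimum total 15, quasi-likelihood test of group, Benjamini-Hochberg adjustment over all tested genes, threshold 0.05), after the fit had been tested on simulated data. Ratios of single libraries used TMM-scaled CPM with a prior count of 2. Symbols were matched for 42462 of 43629 identifiers, and positions and exon lengths came from GENCODE M21 (mm10). Of the genes in 14 further lists, 3 had no match. The members and lists were chosen with earlier results of these data known. Named genes were the members, up to 3 genes per direction past the threshold in each list (or the smallest p), neighbours and closest patterns of the members that passed, and Drosha; other genes named were chosen after their values were seen. Counts of KO1 and KO2 differed beyond sampling noise (chi-square per gene 2.26, against 167 for the wild types), so they were kept as 2 samples. Equal replicate numbers in the labels name libraries and were not taken to pair them. Alternatives were other scalings, filters, DESeq2 1.42.0, GC and length correction, summed knockouts, a replicate block and leaving out each library.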

Additional observations from a re-analysis of the deposited data

How the results depend on the processing

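The count of genes past the threshold depended on the processing, since the smallest adjusted p was 0.0482. Instead of 927 genes, 4 members and 2 other germline genes, DESeq2 called 3747 genes, 5 members and 16 others, and edgeR without a filter 2663, 4 and 9. Upper-quartile scaling, library totals alone, GC and length trends removed, and the summed knockouts each gave 0 genes, 0 members and 0 others in edgeR, with 6267, 6116, 4300 and 1888 genes at an unadjusted p under 0.05. The replicate block, for libraries that share only a number (correlation of the pair differences 0.0455), gave 1929 genes, 4 members and 9 others. Leaving out 1 library gave 0 to 13658 genes, 0 to 9 members and 0 to 57 others. Without KO1 and without KO2 the counts were 0 and 22 genes with no member, and without WT1 and without WT2, where the spread comes from the near-identical knockouts, 13658 and 12089 genes with 9 members each. The fit then takes a lone library to be as variable as the other genotype's pair. Tex15, Stk31, Mageb16, Nanos3, Dazl and Mael kept their direction under all 12 alternatives, with ranges of -2.996 to -1.95 (Tex15), -2.12 to -1.41 (Stk31), -2.47 to -1.76 (Mageb16), 2.69 to 3.74 (Nanos3), -0.81 to -0.07 (Dazl) and -0.62 to -0.22 (Mael). For these genes the knockout and wild-type libraries did not overlap, as for 71.2% of all tested genes. Leaving out or summing libraries could therefore hardly reverse them, and nothing is read from the kept direction. The ranges of Stra8 (-1.90 to 1.81), Tex101 (-1.18 to 2.26), Tdrd1 (-0.62 to 0.37) and Fam221a (-0.71 to 0.29) changed sign with the library left out. With GC and length trends removed Tdrd1 was at 0.055, Zswim4 at -0.028, Prrg1 at 0.10 and Purg at 0.060, and with the replicate block Tex101 was at 0.38. The cause was not tested. All 80 ratios with a prior count of 0.5 or 5 stayed within counting error of the reported value. Depth limits Asz1 and the wild-type values of Nanos3.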

Other observations

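Genes of the later steps of sperm formation were almost silent in all 4 libraries. Of 14 listed genes 2 were tested and neither passed in edgeR (0 at an unadjusted p under 0.05), and 5 had no count anywhere, the protamine genes Prm1 and Prm2 among them. Ldhc, the lactate dehydrogenase of germ cells, measured 1.17 (KO1), 1.44 (KO2), 4.76 (WT1) and 1.33 CPM (WT2) (log2 fold change -1.22 ± 0.68, edgeR adjusted p = 0.256). Markers of the somatic cells of the testis were low as well, with 5 of 11 tested. Wt1, a transcription factor of gonad and kidney, was the 1 gene that passed, rising from 0.827 and 0.750 to 3.27 and 3.61 CPM (log2 fold change 2.12 ± 0.27, edgeR adjusted p = 0.0482). Of all tested genes 3.51% rose. In edgeR 1 of the 5 had an unadjusted p under 0.05, beside 37.1% of all tested genes. With GC and length trends removed Wt1 was at 1.78 ± 0.25 and did not pass (edgeR adjusted p = 0.0920). Hsd3b1, a steroid enzyme of Leydig cells, had no count in any library.

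Surface proteins related to TEX101, or known to work with it in sperm, did not pass. Of 11 listed genes 8 were tested, 0 passed in edgeR and 3 had an unadjusted p under 0.05, beside 37.1% of all tested genes. Ly6k, which encodes a binding partner of TEX101, had 0.972 and 1.20 CPM in the knockouts, 2.00 CPM in WT1 and 3.94 CPM in WT2, so WT2 was its highest library where Tex101 was lowest. Ly6e, with the smallest p of the list, had a log2 fold change of 0.88 ± 0.23 (adjusted p = 0.0778).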
